A study of Mus musculus with 2 samples.

Results

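The nuclear long noncoding RNAs described here were 8 genes of the 32285 in the count matrices: Meg3, Rian, Mirg, Snhg11, Snhg14, Miat, Malat1 and Neat1. They were chosen by name and by their measured CPM and shares of UMIs across cell classes, libraries and depths in these data, so those values are descriptions and carry no test. All 8 were found in both matrices. The nuclei came from spinal cords of male iNeuroD1GFP mice, a transgenic line named for NeuroD1, a proneural transcription factor. By the labels 3 mice aged 8 weeks were used, injured at postnatal day 60, and sampled 10 days later. Tamoxifen (100 mg/kg/day) was given on days 5 to 8 of that interval. The series revisits whether NeuroD1 converts glia to neurons. Every animal carried the transgene, was injured and received tamoxifen, so neither an uninjured nor an uninduced group is among the samples used here. Each cord was divided into the injury core and a region that the titles call distal and the extraction protocol calls peri-injury. Frozen tissue of each region gave 1 library of nuclei by 10x Genomics 3′ chemistry, which counts unique molecular identifiers (UMIs), each standing for 1 captured RNA molecule. The labels do not say whether the 3 mice were pooled or which cells express the transgene.

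Depth was 30469263 UMIs over 16362 barcodes in the core (500 to 45528 per barcode, median 1303) and 19049572 UMIs over 7452 barcodes in the distal library (500 to 69539, median 1743). The libraries shared 38 barcode sequences. Levels are given as CPM, the UMIs of a gene scaled to the summed UMIs of all nuclei in a group, with 95% intervals that cover counting error only. With 1 library per region no difference has a replicate check, and regions cannot be told apart from libraries. Nuclei were put into classes from marker genes of clusters built without the 8 RNAs. Neurons numbered 8603 in the core and 2007 in the distal library, and oligodendrocytes 621 and 2089. The other classes with at least 50 nuclei in both libraries were oligodendrocyte progenitors (OPC), astrocytes, myeloid cells, fibroblasts and endothelial cells, with 50 to 117 nuclei each in the core and 121 to 633 in the distal library. One cluster of 6614 core and 65 distal barcodes, called background-like here, varied at its depth little more than random draws from 1 shared RNA profile would. It held 40.4% of all core barcodes. The limit behind this name was not scaled to depth, and the median of the cluster was 941 UMIs. Per 1000 UMIs its excess over random draws was 0.0858. That was above neuron clusters c1 (0.0721) and c7 (0.0644) and below the other neuron clusters, so the name is only a label. The 10 neuron markers together reached 18806.5 CPM in core neurons and 17129 CPM in distal neurons. They were also present outside neurons, at 12219 CPM in core oligodendrocytes, 6582 CPM in distal oligodendrocytes, 15853 CPM in core myeloid nuclei and 17257.5 CPM in core background-like barcodes. How much of this was free RNA, and how much the classes' own, was not tested.

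Long noncoding RNAs that stay in the nucleus are well represented when nuclei rather than whole cells are sequenced. Meg3, Rian and Mirg are transcribed from the maternal copy of the imprinted Dlk1-Dio3 region and host many microRNAs and small nucleolar RNAs. Snhg11 and Snhg14 are hosts of small nucleolar RNAs, and in neurons the paternal Snhg14 transcript runs antisense to Ube3a and silences that copy. Miat is a nuclear RNA of neurons that binds splicing factors. Malat1 sits in nuclear speckles, the stores of splicing factors, and Neat1 is the scaffold of paraspeckles, bodies that retain RNA and proteins. In nervous tissue Meg3 is known as a neuronal transcript, whereas Malat1 is found in nearly every cell type.

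By GENCODE M21 on GRCm38, 3 of the genes stood in 1 row on the plus strand of chromosome 12. Meg3 (ENSMUSG00000021268) was at chr12:109541001-109571726, Rian (ENSMUSG00000097451) at chr12:109603940-109661716 and Mirg (ENSMUSG00000097391) at chr12:109729764-109749460, together spanning 208 kb. Snhg11 (ENSMUSG00000044349) was at chr2:158375638-158386145 on the plus strand, where the annotation types it as protein coding. Snhg14 (ENSMUSG00000100826) covered 668 kb of the minus strand at chr7:59307924-59975759, contained 208 annotated small nucleolar RNA genes of the same strand, and overlapped Ube3a on the opposite strand by 3.61 kb. Miat (ENSMUSG00000097767) was at chr5:112213228-112229395 on the minus strand, opposite the noncoding gene Gm26953. Malat1 (ENSMUSG00000092341) at chr19:5795690-5802672 and Neat1 (ENSMUSG00000092274) at chr19:5824708-5845478 were neighbours on the minus strand, with 22.0 kb between them. The sources used here do not say whether reads were counted by strand. If they were not, reads of Snhg14 and Ube3a, or of Miat and Gm26953, could be confused where the genes overlap. Snhg14 also overlapped the protein-coding gene Gm38393 (chr7:59974149-60005064) on its own strand, where strand would not part the reads.

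Sequences of the start regions are shown for the most similar pair, Meg3 and Snhg11, and for Malat1, whose levels ran the other way. They come from RefSeq on GRCm38.p6 and run from 250 bases before to 50 bases after the start, at chr12:109540746-109541045 (plus), chr2:158375463-158375762 (plus) and chr19:5802623-5802922 (minus). Capitals mark matches on either strand to TGACG, the shortened cAMP response element, to TATAAA, the TATA box, and to CCAAT.
Meg3: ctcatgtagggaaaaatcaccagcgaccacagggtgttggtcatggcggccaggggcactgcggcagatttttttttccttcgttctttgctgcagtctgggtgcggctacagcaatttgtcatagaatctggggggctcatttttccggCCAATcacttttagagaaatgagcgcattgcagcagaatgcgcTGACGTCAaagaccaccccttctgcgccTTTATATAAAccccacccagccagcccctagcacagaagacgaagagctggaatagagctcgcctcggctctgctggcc
Snhg11: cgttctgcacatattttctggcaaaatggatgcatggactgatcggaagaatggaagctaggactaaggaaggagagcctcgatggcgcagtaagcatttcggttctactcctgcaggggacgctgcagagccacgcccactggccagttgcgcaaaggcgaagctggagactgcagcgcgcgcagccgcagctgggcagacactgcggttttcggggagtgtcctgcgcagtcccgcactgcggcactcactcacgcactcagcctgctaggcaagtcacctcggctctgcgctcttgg
Malat1: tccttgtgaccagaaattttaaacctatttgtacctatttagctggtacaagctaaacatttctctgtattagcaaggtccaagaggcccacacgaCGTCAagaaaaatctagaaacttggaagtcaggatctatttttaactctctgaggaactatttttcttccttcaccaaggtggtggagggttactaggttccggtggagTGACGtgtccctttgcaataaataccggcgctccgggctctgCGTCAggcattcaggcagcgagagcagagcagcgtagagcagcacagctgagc
The first of the Meg3 windows, shown here, held the full cAMP response element TGACGTCA at position -57 from its start, which also contains TGACG on both strands, and a TATA box on both strands at positions -29 and -25. Of 32851 promoter windows, 1.79% held TGACGTCA, 20.8% held TGACG, 13.6% held TATAAA and 37.4% held CCAAT. Malat1 held TGACG at positions -154, -45 and -3, and neither TGACGTCA nor TATAAA. Snhg11 held none of the 4 sets of letters in this window. CAGATG, the E-box form bound by NeuroD1, was found in 17.2% of windows and, among the 7 genes with a window (Neat1 has no entry), in that of Rian.

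The Dlk1-Dio3 transcripts also carry microRNAs, which the 3′ libraries did not measure. On the same strand GENCODE M21 lists 2 microRNA genes inside Meg3, 4 inside Rian and 14 inside Mirg, and RefSeq has 3, 6 and 26 mature sequences there. Shown are 1 from Meg3, 1 from Rian and 4 from Mirg, from RefSeq on GRCm38.p6, with the seed (bases 2 to 8) in capitals. The last pair has the only seed shared between microRNAs of these 3 genes.
mmu-miR-770-3p (Meg3): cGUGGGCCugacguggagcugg
mmu-miR-370-3p (Rian): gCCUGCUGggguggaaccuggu
mmu-miR-134-5p (Mirg): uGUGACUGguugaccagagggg
mmu-miR-410-3p (Mirg): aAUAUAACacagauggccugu
mmu-miR-453 (Mirg): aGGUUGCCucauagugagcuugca
mmu-miR-496a-5p (Mirg): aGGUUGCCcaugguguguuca
Their host RNAs are described next by class.

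The 8 RNAs together made up 4.93% of all core UMIs and 4.95% of all distal UMIs, mostly through Malat1 and Meg3. Malat1 took 2.77% of core and 3.97% of distal UMIs and was found in every barcode of both libraries, with at least 8 UMIs in a core barcode and 12 in a distal one. Meg3 took 1.51% of core and 0.594% of distal UMIs. It was found in every core barcode and was missing from 146 distal barcodes. Neat1 took 0.0106% of core and 0.0719% of distal UMIs. Presence of Malat1, or of Meg3 in the core, therefore separated no barcodes from the rest. The 2 core and 9 distal barcodes removed for more than 5% mitochondrial UMIs still had the 8 RNAs at 4.09% and 6.86% of UMIs.

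In distal neurons 6 of the RNAs were higher than in distal oligodendrocytes by at least 1.5-fold, 1 was lower, and Malat1 was neither. Over the 10203 genes with enough counts, 26.1% were at least 1.5-fold higher in these neurons and 23.4% lower. Meg3 stood at 9798 CPM (95% interval 9719 to 9877) in distal neurons and 3536 CPM (3482 to 3589) in distal oligodendrocytes, a ratio of 2.77 (2.72 to 2.82). The size of the ratios in this comparison depended on the clustering: at Leiden resolution 0.5 they were 4.43 for Meg3, 5.37 for Rian, 6.49 for Mirg, 3.99 for Snhg11, 4.47 for Snhg14 and 5.44 for Miat. Without oligodendrocyte cluster c3, an alternative chosen after seeing the data, that of Meg3 was 4.16. In the core the same classes had 15135 and 10035 CPM, a ratio of 1.51. There 4 of the RNAs (Meg3, Rian, Mirg and Miat) were higher and Neat1 lower, against 15.2% and 18.3% of 9723 genes. The other 5 classes ran from 8413 CPM in endothelial to 13910.1 CPM in myeloid nuclei in the core, and from 3432 to 5643 CPM in the same classes in the distal library. Neurons thus had the highest Meg3 of the 7 classes in both libraries, but every core class was above every distal class other than neurons.

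Rian and Mirg followed Meg3. Rian had 897 CPM in distal neurons and 286 CPM in distal oligodendrocytes, a ratio of 3.13 (2.95 to 3.32). In the core it had 1057 CPM in neurons and 693 CPM in oligodendrocytes. Core myeloid nuclei were listed higher, at 1185 CPM, but that value rests on 111 UMIs, and its interval of 975 to 1427 covers the level of neurons. Mirg was sparser, at 207 and 67.8 CPM in distal neurons and oligodendrocytes, a ratio of 3.05 (2.69 to 3.45), and at 294 and 179.7 CPM in the core. Core neurons, myeloid nuclei, astrocytes and OPC could not be put in order for Mirg, since each interval met the next.

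Other genes of the Dlk1-Dio3 region were taken as a list of 8, of which 5 had enough counts in the distal comparison. B830012L14Rik, the noncoding gene between Rian and Mirg, had 248 CPM in distal neurons and 75.0 CPM in distal oligodendrocytes, a ratio of 3.31. Rtl1, the retrotransposon-like gene on the opposite strand between Meg3 and Rian, had a ratio of 3.38 at 30.5 against 9.03 CPM. Begain and Wdr25 had ratios of 1.76 and 1.55, and Ppp2r5c, a phosphatase subunit gene, 0.963. So 4 of the 5 were at least 1.5-fold higher in neurons and 0 lower, with a median ratio of 1.76, beside 26.1% and 23.4% of all genes. Between core and distal neurons Rtl1 went against the noncoding genes of the region, at 17.8 against 30.5 CPM, a ratio of 0.583 (0.488 to 0.699), while B830012L14Rik had a ratio of 1.26.

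The small nucleolar RNA hosts Snhg11 and Snhg14 were also listed highest in neurons and next highest in myeloid nuclei in both libraries, with different orders below that. In the core, for both RNAs, the intervals of myeloid nuclei met those of neurons and those of the class below. In the distal library neurons stood apart, but for Snhg14 the intervals of myeloid and endothelial nuclei met. Snhg11 stood at 2669.9 CPM in distal neurons and 1032 CPM in distal oligodendrocytes, a ratio of 2.59 (2.50 to 2.67), and at 3580.4 and 2525 CPM in the core. Snhg14 stood at 1183 and 431 CPM in the distal library, a ratio of 2.75 (2.62 to 2.89), and at 1290.0 and 928 CPM in the core. The core ratios of 1.42 for Snhg11 and 1.39 for Snhg14 did not reach 1.5-fold. The 4 other hosts with enough counts, Snhg3, Snhg9, Snhg20 and Gas5, had distal ratios between 0.740 and 0.936, so 0 of 4 were called. Of all genes 26.1% were called higher and 23.4% lower.

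Around Snhg14, 6 of 11 listed genes of the Prader-Willi and Angelman region had enough counts. In distal neurons 5 of the 6 were also at least 1.5-fold higher and 0 lower, beside 26.1% and 23.4% of all genes. Ube3a, the ubiquitin ligase gene that Snhg14 overlaps, had 773 CPM in neurons and 301 CPM in oligodendrocytes, a ratio of 2.57. The GABA-A receptor subunit genes Gabrg3 and Gabra5 had ratios of 5.04 and 3.61, and Atp10a, a lipid flippase gene, 5.02. Snrpn, the splicing protein gene upstream of Snhg14, had a ratio of 1.44 and was not called. Ube3a differed between regions where Snhg14 hardly did. It had 458 CPM in core and 773 CPM in distal neurons, a ratio of 0.592 (0.572 to 0.613), against 1.09 (1.06 to 1.12) for Snhg14.

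Miat had 189 CPM in distal neurons and 62.0 CPM in distal oligodendrocytes, a ratio of 3.06 (2.69 to 3.48). In the core it had 256 and 131 CPM. Distal astrocytes were listed next at 98.8 CPM and stood 1.59-fold (1.29 to 1.97) above oligodendrocytes, but their interval met that of endothelial nuclei. In the core, astrocytes at 253 CPM (172 to 359) could not be separated from neurons at 256 CPM. Nor could core OPC at 209 CPM (128 to 323) or core fibroblasts at 175 CPM (114 to 257). Of 5 genes for splicing proteins linked to Miat, Celf3 and Celf2 were higher in distal neurons with ratios of 4.39 and 2.77, and Qk, the quaking gene of glia, was lower with a ratio of 0.179. Sf1 and Khdrbs1 were not called, at 0.743 and 0.836. Over all genes in this comparison, 26.1% were called higher and 23.4% lower.

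Malat1 ran opposite to these 6 RNAs. Neurons had the lowest level of the 7 classes in both libraries, 23597 CPM in the core and 31719 CPM in the distal library. Distal oligodendrocytes had 47224 CPM and core oligodendrocytes 32729.5 CPM. The highest levels were 64150.5 CPM in distal endothelial nuclei and 42726.5 CPM in core fibroblasts. The ratio of distal neurons to oligodendrocytes was 0.672 (0.668 to 0.676), just short of 1.5-fold, and 0.617, past it, at Leiden resolution 2. From the highest to the lowest class Malat1 spanned 1.81-fold in the core and 2.02-fold in the distal library. Among 12 genes for speckle proteins, Srsf2 and Srsf3 were at least 1.5-fold lower in distal neurons, with ratios of 0.538 and 0.569. So were Son and Srsf6, at 0.580 and 0.619, which are named after their values were seen. None of the 12 was that much higher, and the median ratio was 0.775. Of all genes 26.1% were that much higher and 23.4% lower.

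Neat1 had the widest range. Distal neurons had 179 CPM and distal oligodendrocytes 1087 CPM, a ratio of 0.164 (0.154 to 0.176). Core neurons had 55.1 CPM from 1192 UMIs in 8603 nuclei, and core oligodendrocytes 956 CPM, a ratio of 0.0576 (0.0531 to 0.0626). Fibroblasts had the highest level in both libraries, 1024 CPM in the core and 1396 CPM in the distal library, and neurons the lowest. In the core the intervals of fibroblasts and oligodendrocytes met. Neat1 was seen in 9.02% of core neurons at a median of 1968 UMIs and in 70.7% of core oligodendrocytes at 1413 UMIs. After thinning each nucleus to 1000 UMIs these shares were 4.32% and 57.9%. Of 12 genes for paraspeckle proteins, Nono alone was at least 1.5-fold lower in distal neurons, with a ratio of 0.605, and 0 were higher. The shares of all genes were 23.4% lower and 26.1% higher.

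Among the other distal classes the RNAs differed less from oligodendrocytes. Myeloid nuclei had 4 RNAs higher (Meg3 1.60, Rian 1.74, Mirg 1.59 and Snhg11 1.57) and Neat1 lower (0.451), where 33% of all genes were higher and 17.7% lower. Astrocytes had Miat alone higher and 0 lower (22.7% and 11.9% of all genes). OPC had 0 higher and Neat1 lower, at 0.517 (16.9% and 15.9%). Endothelial nuclei likewise had 0 higher and Neat1 lower, at 0.600 (31.9% and 24.4%). Fibroblasts had none of the 8 past 1.5-fold (29% and 15.4%).

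The 6 neuron-high RNAs were found in all classes, and relative to Meg3 they varied less between classes than Malat1 and Neat1 did. For every 1000 Meg3 UMIs the distal library held 80.4 to 91.5 Rian UMIs and 261 to 322 Snhg11 UMIs across the 7 classes. In the core the ranges were 59.7 to 85.2 for Rian and 231 to 257 for Snhg11. Myeloid nuclei, for example, had 88.2 Rian and 287 Snhg11 UMIs per 1000 Meg3 UMIs in the distal library, beside 91.5 and 272 in neurons. Snhg14 varied by 1.40-fold between core classes and 1.56-fold between distal classes, Mirg by 1.69-fold and 1.54-fold, and Miat by 2.19-fold and 1.98-fold. In the distal library Malat1 varied by 5.77-fold on this scale and Neat1 by 18.1-fold, from 18.2 in neurons to 331 in fibroblasts. The part of free RNA in the levels of non-neuronal classes was not tested.

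**Figure D1:**
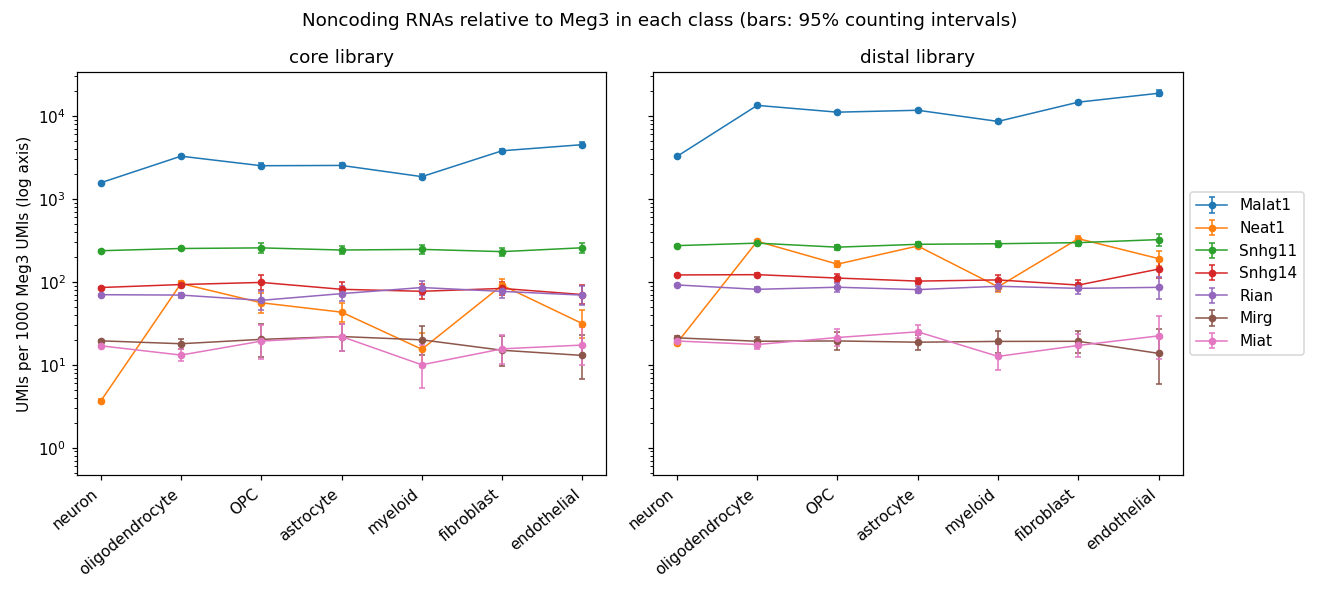
UMIs of 7 RNAs per 1000 Meg3 UMIs (log y axis) in each class (x axis) of the core and distal libraries, with 95% counting intervals; lines only join points of 1 RNA. Snhg11 varies least, by 1.11-fold in the core and 1.23-fold in the distal library, whereas Neat1 is lowest in neurons, at 3.64 in the core and 18.2 in the distal library.

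Shares of nuclei with a UMI overlapped between classes. Meg3 was found in 100% of distal neurons (at least 99.8% by its interval) and in 97.0% of distal oligodendrocytes, at medians of 2337 and 1814 UMIs per nucleus. Thinned to 1000 UMIs, the shares were 100% of 1872 neurons and 89.1% of 1863 oligodendrocytes, with means of 9.61 and 3.21 Meg3 UMIs. Snhg11 was found in 92.6% of thinned distal neurons and 56.0% of thinned distal oligodendrocytes. Rian was found in 59.5% and 19.8%, and Miat in 15.1% and 5.53%. Presence of these RNAs in a nucleus therefore did not mark it as a neuron, while their amounts differed.

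Within distal oligodendrocytes the neuron-high RNAs varied by cluster. Cluster c3, which held 97.7% of all core oligodendrocytes, had 7592 CPM of Meg3 in its 384 distal nuclei. The distal clusters c4 and c8, with 957 and 748 nuclei, had 2440.3 and 2264 CPM. Snhg11 followed, at 2130.5 CPM in c3 and 737 and 686 CPM in c4 and c8. Neat1 went the other way, at 578 CPM in c3 and 1428 and 1027 CPM in c4 and c8. Between nuclei, beyond counting error, the coefficient of variation of Meg3 was 95.3% in distal oligodendrocytes and 22.7% in distal neurons. That of Malat1 was 33.7% and 28.2%.

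Neuron clusters spanned 1.41-fold in Meg3 in the core and 1.74-fold in the distal library, against 3.12-fold and 5.65-fold in Miat. Across 12 neuron clusters with at least 20 core nuclei Meg3 ran from 12507.5 CPM in c24 to 17622 CPM in c13. Across 13 such distal clusters it ran from 6932 to 12093 CPM, with c24 lowest and c13 highest again. Miat was highest in c13 too, at 367 CPM in the core and 357 CPM in the distal library, and lowest in c19 in the core, at 118 CPM, and in c14 in the distal library, at 63.2 CPM. Snhg11 varied little, from 3397 to 3905 CPM in the core and from 2198 to 3006 CPM in the distal library. Neat1 spanned 6.92-fold in the core, with its highest level of 177 CPM in c7, the cluster of deepest core neurons at a median of 6267.5 UMIs.

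**Figure D2:**
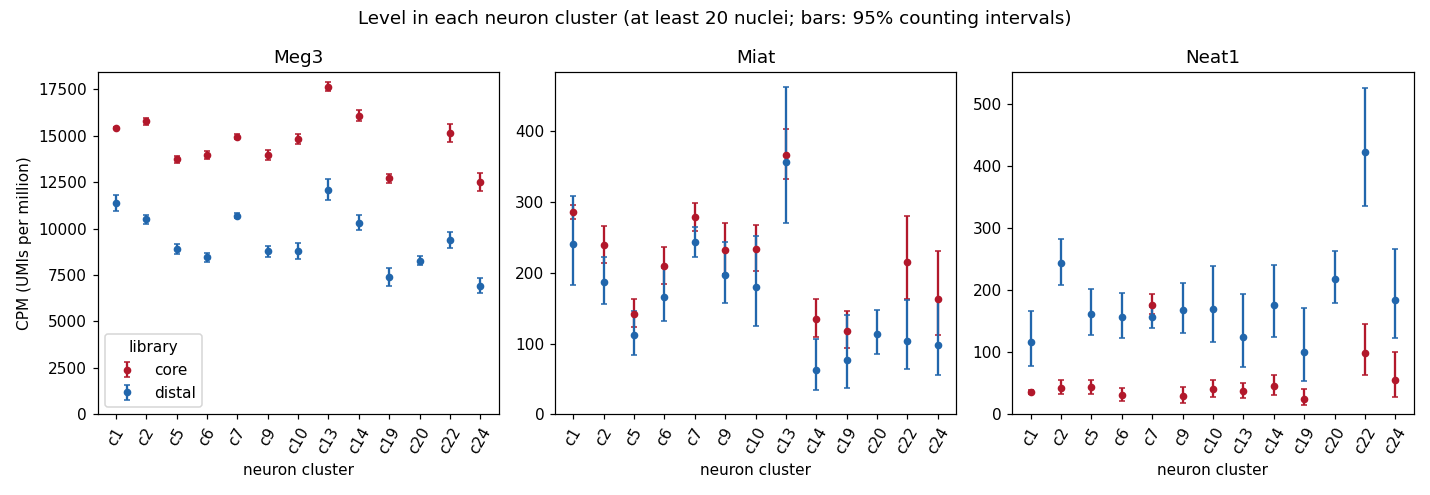
CPM of Meg3, Miat and Neat1 (y axis) in each neuron cluster (x axis) of the core and distal libraries, with 95% counting intervals. Cluster c13 has the highest Meg3 and Miat in both libraries, and c7 the highest core Neat1.

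The share of UMIs that was Malat1 was lower in the deepest than in the shallowest nuclei of neurons and oligodendrocytes, whereas that of Meg3 hardly moved in neurons. In core neurons of 500 to under 1000 UMIs Malat1 stood at 34878.5 CPM, and in those of 8000 UMIs and over at 18436.5 CPM. In distal neurons the same bands had 46039 and 29426 CPM, and in distal oligodendrocytes 57402 and 33185 CPM. Per nucleus the count still went up, from 31.6 to 229 Malat1 UMIs in core neurons and from 39.3 to 419 in distal neurons. Meg3 in core neurons went from 15864 CPM in the shallowest band to 14527.5 CPM in the deepest, and in distal neurons from 9299.8 to 10215 CPM. Ribosomal protein mRNA moved with Malat1, from 2084 to 1335 CPM in core neurons, and mitochondrial RNA from 136 to 49.9 CPM. Their part in the Malat1 trend was not tested.

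Neat1 followed depth differently in neurons of the libraries. In distal neurons it was highest in the shallowest band, at 330.0 CPM from 38 UMIs, and 162 CPM in the deepest. In core neurons it was 59.2 CPM from 33 UMIs in the shallowest band and 124 CPM from 276 UMIs in the deepest. Cluster c7, with a median of 6267.5 UMIs, held 471 of the 1192 Neat1 UMIs of core neurons in 344 nuclei. The part of cluster in this trend was not tested. In oligodendrocytes of both libraries Neat1 was lower in deeper nuclei, from 1387 to 649 CPM between 500 and 8000 UMIs in the core, and from 1384 to 809 CPM over all bands in the distal library.

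**Figure D3:**
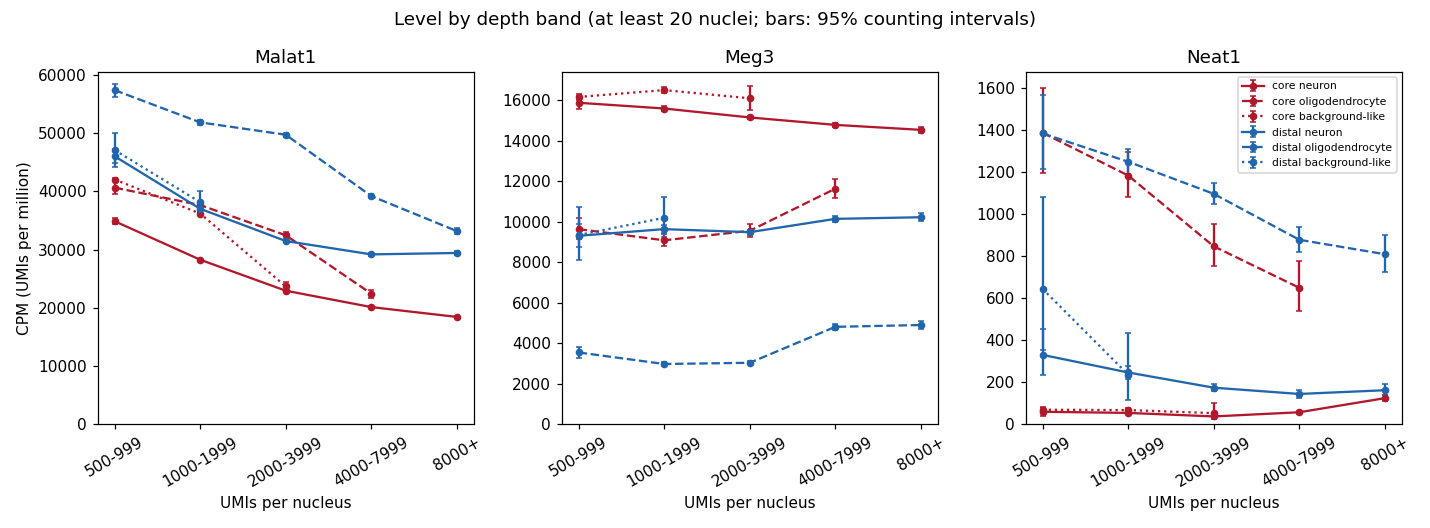
CPM of Malat1, Meg3 and Neat1 (y axis) by UMIs per nucleus (x axis, 5 depth bands) in neurons, oligodendrocytes and background-like barcodes of both libraries, with 95% counting intervals and at least 20 nuclei per point. Malat1 is lower in the deepest than in the shallowest point of each line, from 34878.5 to 18436.5 CPM in core neurons, and Meg3 in neurons is nearly level.

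Across mitochondrial load, Malat1 was higher in the few barcodes with more than 1% and up to 5% mitochondrial UMIs. The 14270 core barcodes with no mitochondrial UMI had 28013 CPM of Malat1 and 15125 CPM of Meg3, and the 23 core barcodes above 1% had 38051 and 11441 CPM. In the distal library 4527 barcodes with none had 41461.8 CPM of Malat1 and 5867 CPM of Meg3, and 81 barcodes above 1% had 52663 and 4575 CPM. The bands pooled barcodes of all classes. A cluster of 95 distal barcodes led by liver genes had a median of 1.25% mitochondrial UMIs, so the bands differ in class too. The median depth went from 1289 to 885 UMIs in the core and from 1674 to 825 UMIs in the distal library between these bands. The course over all bands was uneven. Above 0 and up to 0.5%, Malat1 was lower than with none, at 25911 CPM in the core and 37544 CPM in the distal library. From there up to 1% it was 36302 and 51391 CPM. Above 5%, in 2 core and 9 distal barcodes, it was 28340 and 59056 CPM. The parts of class and depth were not tested.

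Between the regions, Meg3 was at least 1.5-fold higher in core than in distal neurons, Neat1 was that much lower, and the other 6 RNAs were neither. Over 9596 genes, 5% were higher and 11.3% lower by that measure. The ratio of Meg3 was 1.54 (1.53 to 1.56) and that of Neat1 0.308 (0.284 to 0.335). Mirg, Miat and Snhg11 had ratios of 1.42, 1.35 and 1.34, Rian 1.18, Snhg14 1.09 and Malat1 0.744. Different clusters held the neurons of the libraries: 44.6% of core neurons were in c1, which had 70 distal nuclei, and 22.2% of distal neurons in c7. Without c7 the ratio of Neat1 was 0.198 and those of Mirg and Miat were 1.56 and 1.59, which made 4 RNAs past 1.5-fold instead of 2. In each of the 12 neuron clusters with values for both libraries Meg3 was higher in the core, for example at 15411 against 11382 CPM in c1 and 14945 against 10689.6 CPM in c7. Neat1 in c7 was about level, at 177 CPM in the core and 156 CPM in the distal library, and in c1 it was 35.6 against 116 CPM.

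In the non-neuronal classes the gap between regions was wider. Meg3 was higher in the core by 2.84-fold (2.77 to 2.91) in oligodendrocytes, 3.15-fold in OPC, 2.92-fold in astrocytes, 2.46-fold in myeloid nuclei, 2.67-fold in fibroblasts and 2.45-fold in endothelial nuclei. All 6 neuron-high RNAs were past 1.5-fold in the same direction in 5 of these 6 classes, and 5 of 6 in endothelial nuclei, where Snhg14 had a ratio of 1.21 (0.861 to 1.69). The background of genes higher in the core was 23.2% in oligodendrocytes, 23% in OPC, 21.6% in astrocytes, 22% in myeloid, 18.4% in fibroblast and 22.3% in endothelial nuclei, and that of genes lower 18.4%, 32%, 32.3%, 34.7%, 30% and 20.1%. The intervals of Miat in myeloid nuclei and of Mirg and Miat in endothelial nuclei reached below 1. The neuron markers moved the same way, for example at 15853 CPM in core and 8430 CPM in distal myeloid nuclei, and their part in these ratios was not tested. Of the core oligodendrocytes nearly all were in c3, and within c3 alone Meg3 stood at 10142 CPM in the core and 7592 CPM in the distal library. Cluster c25 held 62.1% of core OPC, and c18 held 77.1% of distal OPC. For astrocytes c21 held 68.9% in the core and c16 held 67.1% in the distal library. The part of cluster make-up in the ratios by class was not tested.

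Malat1 was lower in the core in all 7 classes, with ratios from 0.532 in myeloid nuclei to 0.744 in neurons. Neat1 was lower in the core by at least 1.5-fold in neurons, astrocytes, myeloid and endothelial nuclei. In OPC its ratio of 1.08 (0.809 to 1.41) gave no direction beyond counting error.

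**Figure D4:**
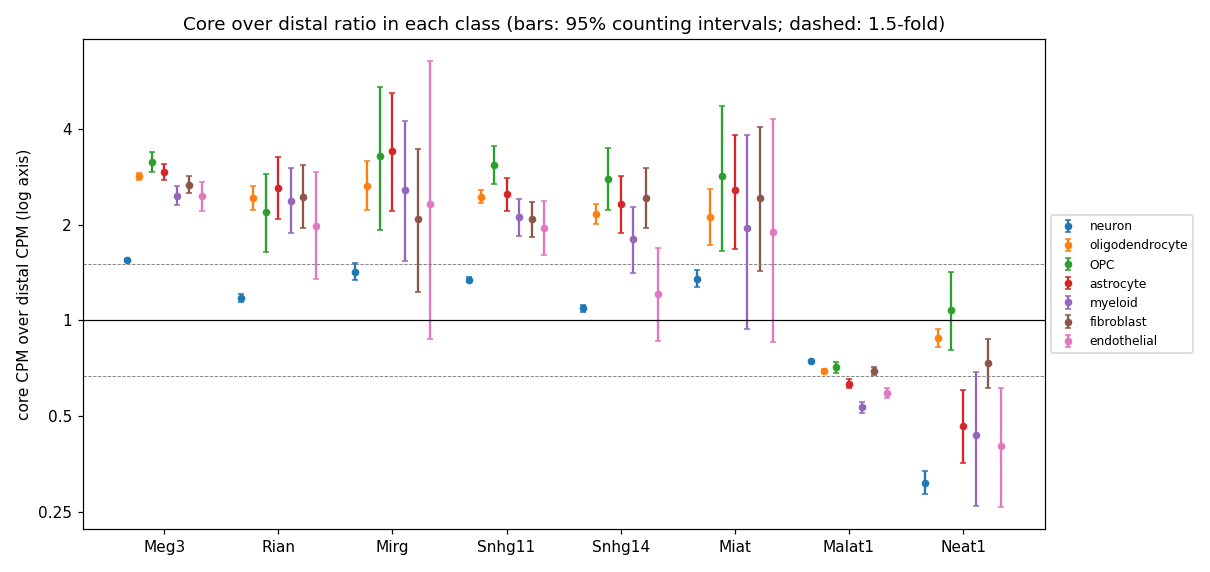
Core CPM over distal CPM (log y axis) of each RNA (x axis) within 7 classes, with 95% counting intervals and dashed lines at 1.5-fold. Meg3, Rian, Mirg, Snhg11, Snhg14 and Miat lie above 1 in all classes, nearest to 1 in neurons, and Malat1 lies below 1 in all.

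The background-like core barcodes had the neuron-high RNAs at the level of core neurons. Meg3 stood at 16294 CPM in them and 15135 CPM in core neurons, a ratio of 1.08 (1.07 to 1.08). Rian, Snhg11 and Snhg14 had ratios of 1.06, 1.04 and 1.08, and Mirg and Miat 0.901 and 0.858. Malat1 alone was past 1.5-fold, at 39053 against 23597 CPM, a ratio of 1.66 (1.65 to 1.66), where 2.41% of 9201 genes were that much higher and 2.68% lower. The median depth was 941 UMIs in background-like barcodes and 1968 UMIs in core neurons. Thinned to 1000 UMIs, the 2441 background-like barcodes deep enough had a mean of 36.5 Malat1 UMIs and 7989 neurons 25.4, a gap under 1.5-fold, so the count of 1 became 0. Within the band of 2000 to under 4000 UMIs the levels were 23681 CPM from 74 background-like barcodes and 22942 CPM from 3164 neurons. Against the core neurons of c1 alone, Neat1 too was past 1.5-fold, at 67.7 against 35.6 CPM. In that comparison 4.13% of genes were higher and 4.23% lower.

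Nuclei with a Neurod1 UMI were compared with depth-matched nuclei without one in 4 groups that had at least 20 such nuclei. The 82 positive core neurons and 25 positive distal neurons differed by less than 1.5-fold from the negative neurons in all 8 RNAs, though the intervals of Neat1 in both libraries, and of Mirg and Miat in the distal one, reached past it. In the core Meg3 stood at 15791 CPM in positive and 14936 CPM in negative neurons, a ratio of 1.06 (1.03 to 1.09). The 27 positive distal astrocytes had Meg3 at 4099 CPM and the negative ones at 4560.1 CPM, a ratio of 0.899 (0.817 to 0.986), so Meg3 was not higher in them. Miat had a ratio of 0.452 (0.182 to 0.932) in astrocytes, Mirg 0.518 (0.190 to 1.13) and Neat1 1.25 (1.04 to 1.48). In the 22 positive distal oligodendrocytes Meg3 had a ratio of 0.637 (0.544 to 0.740) and Rian 0.498 (0.249 to 0.891). These intervals leave out the spread between nuclei, and nuclei were matched for depth but not for cluster. Beyond counting error, the coefficient of variation of Meg3 was 95.3% in distal oligodendrocytes and 72.8% in distal astrocytes. A Neurod1 UMI could come from the transgene, the native gene or free RNA, which cannot be told apart here.

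Likeness of pattern was measured by Pearson's r of log2(CPM + 5) over 14 sums of class and library, among 7177 genes with at least 50 CPM in 1 sum. The sums share libraries and depth, so r is a description. Snhg11 and Meg3 were each other's closest genes, with r of 0.994. Next for Meg3 came Rian at 0.978 and Vwa5b2 at 0.974, and Rian had Meg3, Snhg11 and Crmp1 at 0.976. Mirg was closest to Stau2, Chrm2 and Hecw1, at 0.987, 0.984 and 0.976. Snhg14 was closest to the synaptic genes Grin2a at 0.991, Cntnap2 at 0.986 and Nrg1 at 0.981, the last also a neuron marker used to name classes. Miat had Pfkp at 0.964, Lingo1 at 0.946 and Brinp2 at 0.939. Malat1 was closest to Ptbp2 at 0.946, Zfand6 at 0.945 and Wls at 0.938, and had r of -0.83 with Meg3. Neat1 had lower values, 0.878 for Clmn and 0.860 for Zcchc7.

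Set beside other noncoding genes, the members were not alone in parting neurons from oligodendrocytes. Of 17 measured genes on a list of other long noncoding RNAs, 7 were at least 1.5-fold higher in distal neurons and 3 lower, with a median ratio of 1.12. Over all genes in this comparison 26.1% were higher and 23.4% lower. Mir9-3hg and Rmst, both of neural cells, had the largest ratios, 3.98 and 3.82. Sox2ot, which overlaps Sox2, and Dleu2 had the smallest, 0.137 and 0.224. All 12 genes on a list of neuronal mRNAs, which unlike the members took part in the clustering, were higher, with a median ratio of 3.40, which lay above the 2.76 median of the 8 members. Grin2b, an NMDA receptor subunit gene, and Kcnc2, a potassium channel gene, both also class markers, had the largest ratios of the 12, at 4.60 and 3.94.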

How the data were processed

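Raw UMI counts of 32285 genes per barcode were deposited for 1 core and 1 distal library, made with Cell Ranger 7.1.0 per the file headers. The submitters' processing notes also name Seurat, GRCh38 and mm10, with no role given. Barcodes with fewer than 300 genes or more than 5% mitochondrial UMIs were removed. Scrublet called 0 doublets in either library, so doublets were in effect left in. Counts scaled to 10000 per barcode were clustered with scanpy 1.11.5 and leidenalg 0.10.2 (2000 variable genes without the 8 members, 40 components, 15 neighbours, resolution 1). This gave 59 clusters, of which the 30 with at least 30 nuclei were named from marker genes, with dispersion or depth used for some, or left unnamed. A cluster kept a class other than neuron only with a marker of that class among its 30 most raised genes. Neuron clusters did not need a marker there, and most had none. Nuclei in mixed, unnamed, blood and mitochondrial, liver-gene or small clusters entered no comparison. The naming rules, and the dispersion limit that defined background-like barcodes, were set after the data were seen, so classes may differ from the study's own.

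UMIs were summed by class and library and divided by the sum of all UMIs to give CPM. Levels have exact Poisson intervals, shares exact Clopper-Pearson intervals and ratios exact conditional intervals, all at 95% and for counting error only. Nuclei are not replicates and each region had 1 library, so no p-value was computed. A gene counted as higher or lower past 1.5-fold, given at least 10 CPM in 1 sum and 20 UMIs over both. For shares at equal depth each nucleus was thinned to 1000 UMIs; 5181 core and 1507 distal barcodes were too shallow. Negative nuclei in the Neurod1 comparison were weighted to the positive ones over 10 depth bins. Calculations used Python 3.11.15, numpy 2.4.6, scipy 1.17.1 and pandas 2.3.3, and the scripts were tested on simulated counts. The members and gene lists were chosen with earlier results of these data known. All members were described. From other lists at most 2 genes per direction with the largest ratio were named, or the whole list where fewer than 12 members were measured, and for likeness the 3 closest genes, except for a few genes that are not reported here. Of the 32285 genes, 32158 (99.6%) were found in GENCODE M21.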

Additional observations from a re-analysis of the deposited data

Results flagged for a closer look

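Among nuclei with a Neurod1 UMI, Meg3 and Snhg11 went opposite ways in different classes, with intervals that did not reach 1. Meg3 had a ratio of positive to negative nuclei of 1.06 in core neurons, 0.637 in distal oligodendrocytes and 0.899 in distal astrocytes. Snhg11 had 1.07 in core neurons and 0.733 in distal oligodendrocytes. The difference between classes was not tested. The intervals cover counting error only, not the spread between nuclei, and the nuclei of a class share 1 library. Beyond counting error, the coefficient of variation in distal oligodendrocytes was 95.3% for Meg3 and 83.3% for Snhg11. In distal astrocytes that of Meg3 was 72.8%.

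The 8 RNAs were also present in barcodes that entered no comparison. They made up 5.59% of UMIs in the 95 distal barcodes of a cluster led by liver genes, 4.09% in the 2 removed core barcodes and 6.86% in the 9 removed distal barcodes.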

How the results depend on the processing

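The counts of RNAs past 1.5-fold were 7 of 8 between distal neurons and oligodendrocytes, 2 between core and distal neurons, and 1 between background-like barcodes and core neurons. With nuclei thinned to 1000 UMIs the last count was 0, since Malat1 had a ratio of 1.44 there. With nuclei from 1000 to under 4000 UMIs it was 1 again but a different RNA: Malat1 had a ratio of 1.42 and Neat1 1.52. Without neuron cluster c7, an alternative chosen after seeing the data like those without c1 and c3, it was 2, and the count between core and distal neurons was 4. The count of RNAs highest in distal neurons was 6 in each alternative that gave one; centring gave none. Of 130 past-threshold ratios over alternatives, 130 kept their direction and 128 stayed past 1.5-fold; over all 312 ratios 309 kept it. The share of all genes past 1.5-fold was 49.5%, 16.3% and 5.1% in these comparisons, 32.9%, 5.59% and 0.674% at 2-fold, and 60.8%, 45.3% and 37.1% with no count filter. Depth limits Mirg and Miat in the small core classes, where all intervals of neighbours met. Those of Snhg11 met in the core too, and for Neat1 only some did. No paired analysis was possible because each region had 1 library and no test was made.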
